A study of Rattus norvegicus with 13 samples.

Results

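Heat shock proteins and their J-domain partners were followed in rat mammary epithelial cells at an age within and an age outside WOS, the window of susceptibility, in which the developing gland is more easily driven to cancer. RNA-seq libraries, 1 for each rat, were made from 6 Wistar-Furth rats aged 6 weeks (within WOS) and from 7 aged 10 weeks (outside WOS). The study's methods call these rats susceptible to mammary cancer and describe the ages as entering and exiting WOS. No treatment, transgene or mutation is named for either age. Cells came from glands that were minced and digested with collagenase, and ductal fragments were collected, by a nylon filter in the labels and by differential centrifugation in the study's methods for these libraries, which describe them as mainly epithelial with stromal fibroblasts and immune cells. The question put to the data was which chaperone genes differed in expression between the ages.

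Members were taken by a rule on gene symbols: the Dnaja, Dnajb and Dnajc genes, the Hsp90, Hspa, Hspb, Hspd, Hspe and Hsph genes, the heat shock factors, the Bag genes and the subunits of the CCT chaperonin. The rule found 82 of the 14790 gene records, under 81 symbols, because *Hspa8* has 2 records (ENSRNOG00000032585 is the low one, here called the second *Hspa8* record). All 82 had a mean of at least 1 and were tested. By class there were 3 Hsp90 genes, 13 Hsp70 and Hsp110 genes, 6 small heat shock genes, 10 chaperonin genes, 4 DNAJA, 12 DNAJB and 26 DNAJC genes, 2 heat shock factors and 6 BAG genes. *Hspa1a* and *Hsf4* were not analysed here.

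Chaperones help proteins to fold, to assemble and to be taken apart when damaged. Hsp70 proteins bind and release unfolded chains in a cycle that J-domain proteins start, by speeding up the breakdown of ATP, and that nucleotide exchange factors of the Hsp110 and BAG families complete. Hsp90 takes over nearly folded clients such as kinases and steroid receptors, the CCT ring folds actin and tubulin, and small heat shock proteins hold unfolded chains in solution. Heat shock factor 1 switches on many of these genes in the cytosol when proteins unfold, while the unfolded protein response does the same for the chaperones of the endoplasmic reticulum (ER), which serve secreted proteins.

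These switches act through short DNA elements, and the promoters that hold them are shown because both gene groups are followed by their values further on. Promoters of 300 bases, from 250 before to 50 after the start, were taken from RefSeq (GRCr8). They matched 66 of the 81 symbols. The letters GAANNTTCNNGAA (a heat shock element of 3 units, searched on both strands) were in 6 of these 66 promoters and in 0.736% of 27457 promoters of all genes. The 6 were *Cct4*, *Dnaja1*, *Hspa8*, *Hspd1*, *Hspe1* and *Hsph1*. In *Cct4* and *Dnaja1* the match lay after the start and is not printed. *Hspd1* and *Hspe1*, the mitochondrial chaperonin and its lid, are read in opposite directions from 1 shared stretch, so the same bases are their match. In the lines that follow, 5′ to 3′ on the strand of the gene, capitals mark the element, with overlapping matches as 1 run.
*Hspa8* first copy, chr8:50080281-50080333, plus strand: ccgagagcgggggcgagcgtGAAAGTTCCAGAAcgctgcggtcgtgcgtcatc
*Hspa8* second copy, chr8:50080439-50080491, plus strand: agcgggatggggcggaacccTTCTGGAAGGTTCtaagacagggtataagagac
*Hspe1*, chr9:64084242-64084299, plus strand: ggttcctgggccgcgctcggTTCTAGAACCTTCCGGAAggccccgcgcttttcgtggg
*Hsph1*, chr12:10427312-10427364, plus strand: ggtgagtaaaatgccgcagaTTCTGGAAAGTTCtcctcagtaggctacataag
The shorter form with 2 units was searched in both arrangements that the longer one contains, GAANNTTC and TTCNNGAA. At least 1 of them was in 19 of the 66 promoters (28.8%) and in 15.4% of all promoters.

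The letters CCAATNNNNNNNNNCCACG (an ER stress element, searched on both strands) were in 21 of all 27457 promoters (0.0765%). Of these, 3 belonged to chaperone genes, namely *Hspa5* (BiP, the Hsp70 of the ER), *Hsp90b1* (GRP94, the Hsp90 of the ER) and *Dnajc3* (P58IPK, a J-domain partner of BiP). *Hsp90b1* held the element in both orientations. This element was searched after expression values had been seen. Capitals again mark the element, 5′ to 3′ on the strand of the gene.
*Hspa5*, chr3:38452953-38453011, plus strand: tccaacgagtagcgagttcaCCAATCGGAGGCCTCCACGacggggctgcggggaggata
*Hsp90b1* first copy, chr7:23012431-23012489, minus strand: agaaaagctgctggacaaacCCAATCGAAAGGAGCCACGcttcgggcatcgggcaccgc
*Hsp90b1* second copy, chr7:23012327-23012385, minus strand: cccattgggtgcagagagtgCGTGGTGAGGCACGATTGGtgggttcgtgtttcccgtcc
*Dnajc3*, chr15:102432514-102432572, plus strand: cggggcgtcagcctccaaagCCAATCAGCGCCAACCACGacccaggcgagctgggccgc
A match describes these letters and was not tested as a binding site.

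The values are counts that were scaled per library and rounded, here called normalized counts, and each rat had 13261906 to 15659533 of them in all. The ages were set against each other by limma, after adding 1 and taking log2, and a gene was called DE when its p-value, adjusted over all genes after Benjamini-Hochberg, was under 0.05. Log2 fold changes below 0 mean higher outside WOS (10 weeks) and those above 0 higher within WOS. Once the age means were removed, the leading component of what remained (28.3% of that variation) parted 5 rats, namely 75 and 80 (6 weeks) with 78, 81 and 83 (10 weeks), called the smaller set, from the other 8, the larger set. Genes listed at 0 numbered 74 to 463 per rat in the smaller set and 73 to 195 in the larger one. Summed luminal epithelial markers (all 8 in the table) ran from 44511 to 69979 at 6 weeks and from 63250 to 86396 at 10 weeks, with 2 DE and higher at 10 weeks. The 5 fibroblast markers summed to 105230 to 220582 at 6 weeks against 18702 to 54383 at 10 weeks, with 3 of them DE and higher at 6 weeks. All 6 cell cycle markers were DE and higher at 6 weeks, as were 2 of 4 adipocyte and 2 of 3 mast cell markers, and the remaining mast cell marker was DE and higher at 10 weeks. Of lymphocyte markers 1 of 3 was DE, higher at 6 weeks. None was DE of 6 basal epithelial, 4 macrophage, 4 endothelial and 2 skeletal muscle markers. Of all genes 16.1% were DE. In such bulk samples fewer cells of a type and less RNA per cell cannot be told apart, and the part of cell makeup in the results that follow was not tested.

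Few chaperone genes passed the test between the ages. Of the 82, 6 were DE (7.32%), against 16.1% of all genes tested. Higher at 6 weeks were 2, *Dnajc9* and *Dnajc10*, against 8.71% of all genes. Higher at 10 weeks were 4, *Hspa4l*, *Dnajc21*, *Dnajb5* and *Dnajb2*, against 7.39% of all genes. Without adjustment, 15 of the 82 had a p under 0.05, and 31.6% of all genes did. The ages did not overlap for 3 of the 82, against 6.07% of all genes. The median log2 fold change of the 82 was -0.023 and that of all genes 0.028, while the median size of the change was 0.19 for chaperone genes and 0.31 for all genes. Among genes with a mean of at least 100 the median size was 0.14 for 61 chaperone genes and 0.25 for 8858 genes in all, so the gap was also there among the more abundant genes.

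**Figure D1:**
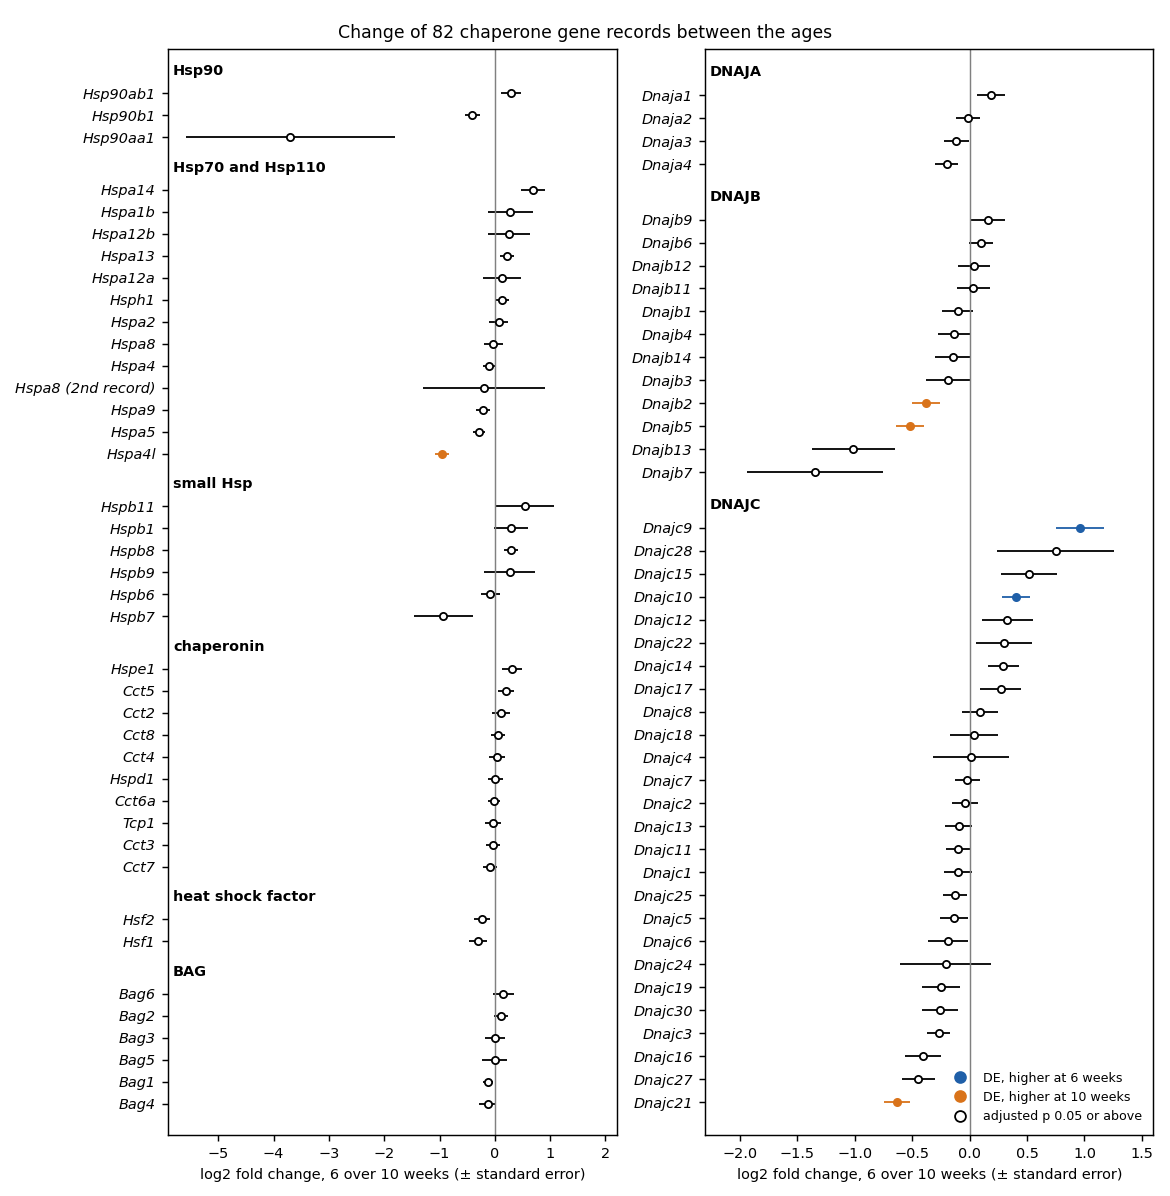
Change of each of the 82 chaperone gene records, grouped by class. The horizontal axes give the log2 fold change, 6 over 10 weeks, with bars of ± 1 standard error, and filled points mark the 6 DE genes, of which *Dnajc9* and *Dnajc10* lie above 0; the 2 panels have different axis ranges.

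The smallest adjusted p was that of *Hspa4l* (ENSRNOG00000010819), an Hsp110 protein that acts as a nucleotide exchange factor for Hsp70. Its normalized counts ran from 834 to 1058 at 6 weeks (median 885.5) and from 1316 to 2066 at 10 weeks (median 1876). Every rat outside WOS was above every rat within WOS. The mean was 924 ± 101 (SD, n = 6) at 6 weeks and 1799 ± 249 (SD, n = 7) at 10 weeks, a log2 fold change of -0.95 ± 0.12 (SE) with a limma adjusted p of 0.000328, or 1.94-fold higher at 10 weeks. *Hspa4*, the close relative of *Hspa4l* (named after its values were seen), had 5027 to 5833 at 6 weeks and 4723 to 6777 at 10 weeks and a log2 fold change of -0.11 (adjusted p = 0.507). *Hsph1*, the other cytosolic Hsp110 gene, had a log2 fold change of 0.12 (adjusted p = 0.53). Of these 3 cytosolic Hsp110 genes, 1 passed the test.

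*Dnajc21* (ENSRNOG00000017876), a J-domain protein that takes part in the maturation of the large ribosomal subunit, was the next. It had 387 to 501 normalized counts at 6 weeks (median 441) and 563 to 863 at 10 weeks (median 672). The ages did not overlap. The means were 442 ± 47.6 and 688 ± 98.2 (SD, n = 6 and n = 7), and the log2 fold change was -0.63 ± 0.12 (SE) with a limma adjusted p of 0.0036.

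*Dnajb5* (ENSRNOG00000000130), a relative of the inducible J-protein *Dnajb1*, had 176 to 234 normalized counts at 6 weeks (median 195.5) and 235 to 380 at 10 weeks (median 276). The highest rat at 6 weeks and the lowest at 10 weeks differed by 1 normalized count, so the ages did not overlap but touched. Its log2 fold change was -0.52 ± 0.12 (SE), with a limma adjusted p of 0.0138. *Dnajb1* itself had 1368 to 1731 at 6 weeks and 1280 to 1986 at 10 weeks and a log2 fold change of -0.10 (adjusted p = 0.624).

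*Dnajb2* (ENSRNOG00000019506), which binds ubiquitinated clients and is best known from neurons, had 158 to 247 normalized counts at 6 weeks (median 229) and 239 to 326 at 10 weeks (median 285). The ages overlapped, with 6 of 7 rats outside WOS above all rats within WOS. Its log2 fold change of -0.38 ± 0.12 (SE) had a limma adjusted p of 0.0482 and was the weakest call, lost in each of the 13 fits that left out 1 rat (adjusted p 0.051 to 0.0886) and with library size scaling (adjusted p = 0.155).

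*Dnajc9* (ENSRNOG00000006619), a J-domain protein that also carries histones H3 and H4, had 148 to 294 normalized counts at 6 weeks (median 233) and 87 to 197 at 10 weeks (median 111). The log2 fold change was 0.96 ± 0.21 (SE), with a limma adjusted p of 0.0096, or 1.94-fold higher at 6 weeks. Of the rats within WOS, 5 of 6 were above all rats outside WOS. Rat 81, with 197, stood highest outside WOS, where the others had 87 to 137. The mean log2 value of the cell cycle markers was also highest in that rat outside WOS, at 6.73, where the others had 4.68 to 5.69, and it was 7.50 to 8.80 within WOS. These cell cycle values moved with *Dnajc9* and their part in its change was not tested.

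**Figure D2:**
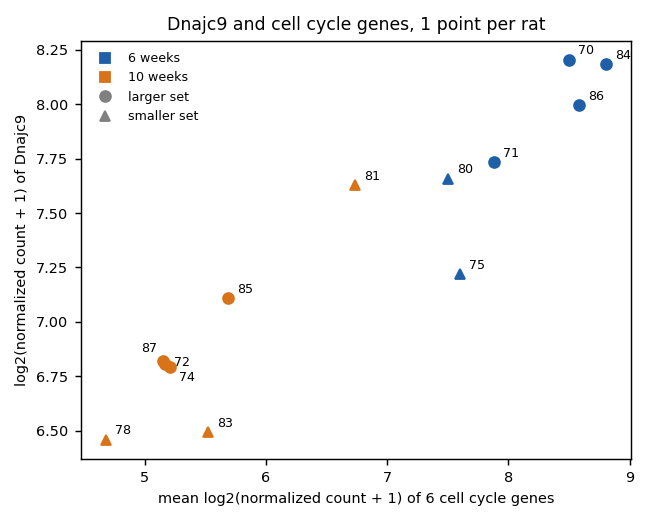
*Dnajc9* against cell cycle genes, with 1 point per rat labelled by its number. The horizontal axis is the mean log2(normalized count + 1) of *Mki67*, *Top2a*, *Ccnb1*, *Cdk1*, *Aurkb* and *Bub1*, and the vertical axis is that of *Dnajc9*; rat 81 is the 10-week rat nearest to the 6-week rats on the horizontal axis.

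*Dnajc10* (ENSRNOG00000006803), an ER protein that reduces disulfide bonds of misfolded chains together with BiP, had 1026 to 1447 normalized counts at 6 weeks (median 1172) and 752 to 1098 at 10 weeks (median 950). Of the rats within WOS, 5 of 6 were above all rats outside WOS. The log2 fold change was 0.40 ± 0.12 (SE), with a limma adjusted p of 0.0381. This call was kept in 2 of the 13 fits that left out 1 rat, where the adjusted p ran from 0.0243 to 0.0768. By contrast *Hspa4l*, *Dnajc21*, *Dnajb5* and *Dnajc9* were DE in 13 of 13.

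**Figure D3:**
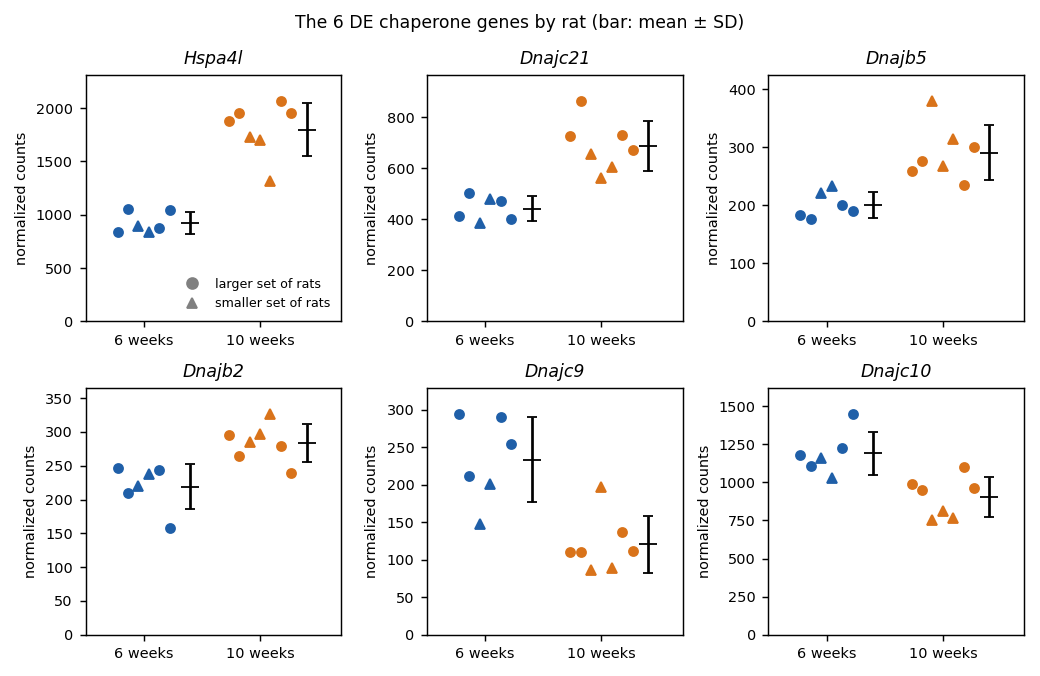
The 6 DE chaperone genes by rat, in normalized counts on axes from 0. Each point is 1 rat, triangles are the smaller set of rats, and the bar beside each age is the mean ± SD (n = 6 at 6 weeks, n = 7 at 10 weeks); the ages do not overlap for *Hspa4l*, *Dnajc21* and *Dnajb5*.

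Just beyond the threshold lay *Dnajc27* (adjusted p = 0.0501), *Hspa14* (adjusted p = 0.0515) and *Hsp90b1* (adjusted p = 0.0623), which are named here after their values were seen. *Dnajc27*, a small GTPase with a J domain, had 88 to 164 normalized counts at 6 weeks and 138 to 210 at 10 weeks. *Hspa14*, an Hsp70 relative that works at the ribosome with *Dnajc2*, had 181 to 319 at 6 weeks and 85 to 265 at 10 weeks. With the rat set as a term all 3 passed in limma (adjusted p = 0.0176, 0.0211 and 0.0269), a setting in which 22.5% of all genes were DE.

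Chaperones of the ER went in no common direction. Among 8 ER genes, grouped after their values were seen, 4 had a log2 fold change above 0 and 4 below, and *Dnajc10* alone was DE. The 3 genes whose promoters hold the ER stress element letters printed above all had a log2 fold change below 0, and none passed the main test. With the rat set as a term *Hsp90b1* and *Dnajc3* passed (limma adjusted p = 0.0269 and 0.0273), and with sample quality weights all 3 did. Of all genes, 22.5% were DE with the rat set as a term and 38.2% with the weights. *Hspa5* had 15307 to 18969 normalized counts at 6 weeks (median 17129) and 15747 to 24916 at 10 weeks (median 21166), a log2 fold change of -0.29 (adjusted p = 0.109). Outside WOS, 6 of 7 rats were above every rat within WOS, and rat 81 was the exception. *Hsp90b1* had 5505 to 8229 at 6 weeks (median 6520.5) and 6462 to 10666 at 10 weeks (median 9206), a log2 fold change of -0.41 (adjusted p = 0.0623). *Dnajc3* had 626 to 751 at 6 weeks (median 721.5) and 685 to 981 at 10 weeks (median 867), a log2 fold change of -0.27 (adjusted p = 0.0924). Within the larger set alone all 3 were DE, with log2 fold changes of -0.44, -0.56 and -0.37 (each p adjusted in limma, 0.0286, 0.0331 and 0.0323). There 23.5% of all genes were DE. In the smaller set alone the log2 fold changes were -0.06, -0.21 and -0.16, and no gene of the whole table passed. Whether the 2 sets of rats differed in this was not tested. The sets were formed from these same values, so fits that use them are no separate support.

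**Figure D4:**
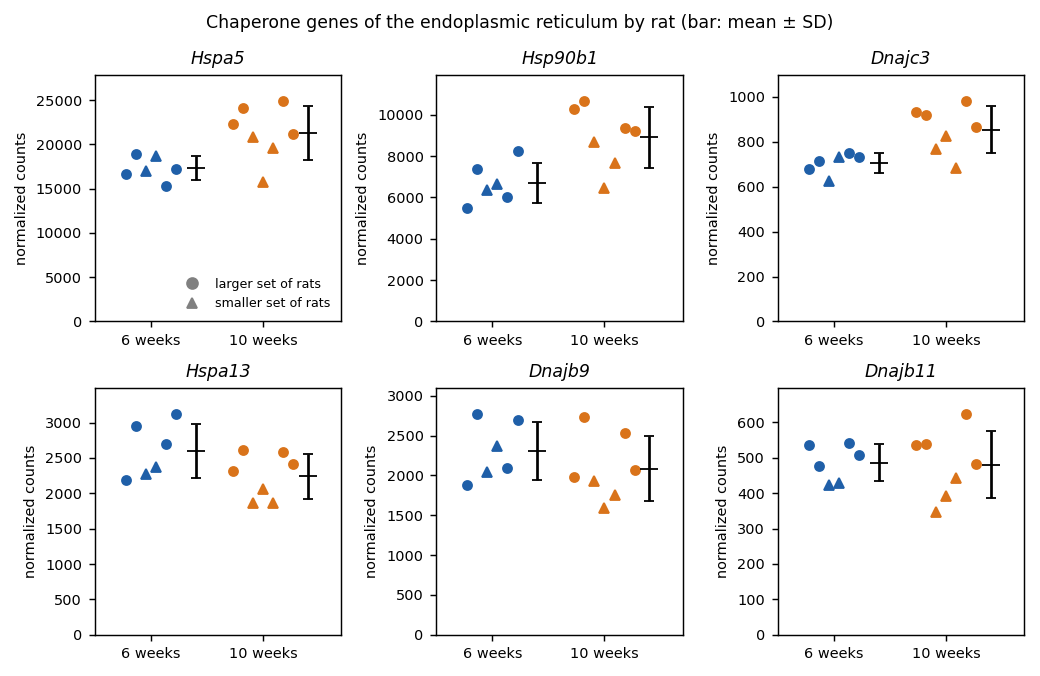
Chaperone genes of the ER by rat, in normalized counts on axes from 0. Each point is 1 rat, triangles are the smaller set, and bars are mean ± SD (n = 6 and n = 7). The upper row holds the 3 genes with the ER stress element letters and the lower row 3 other ER genes. The DE ER gene *Dnajc10* is not shown here. Over all rats the ages overlap for every gene shown. The 10-week circles (the larger set) lie all above the 6-week rats in the upper row but not in the lower row. The sets were formed from these same values, and the ER genes were grouped after their values were seen. The contrast of the rows is a description with no test.

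The other ER genes had changes of either sign. *Dnajb9* (ERdj4) had 1880 to 2767 normalized counts at 6 weeks and 1594 to 2727 at 10 weeks, with a log2 fold change of 0.16 (adjusted p = 0.494). *Hspa13* and *Dnajb11*, named after their values were seen, had log2 fold changes of 0.21 and 0.03. Of the 21 genes with the element letters, 15 were in the table and 10 of them had a log2 fold change below 0, against 47.5% of all genes. The 10 include *Hspa5*, *Hsp90b1* and *Dnajc3*, whose values had been seen before the element was searched. The count therefore describes these 15 genes and was not tested. The 5 DE ones (16.1% of all genes were DE) were no members of the chaperone list: *Xbp1*, a transcription factor of the unfolded protein response, at -0.48 (adjusted p = 0.0184), *Ero1b*, which makes disulfide bonds in the ER, at -0.61 (adjusted p = 0.0172) and *Ppm1l* at -0.44 (adjusted p = 0.0133), while *Ankmy2* at 0.81 (adjusted p = 0.00119) and *Birc5* at 3.37 (adjusted p = 0.000653) were higher at 6 weeks. Of the ER chaperones among the 15 that are no members of the chaperone list, *Calr* had 0.27 and *Canx* -0.04. *Creld2* had 0.16, and none of these genes passed. These genes too are named after their values were seen. *Hyou1*, the ER Hsp110, did not pass.

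Of a list of 10 stress-related heat shock genes, which also holds the constitutive *Hspa8* and the ER gene *Hspa5*, limma called 0, and *Hspa5* alone had an unadjusted p under 0.05. The abundant *Hspa8* record, the constitutive Hsp70 of the cytosol, had 12674 to 20433 normalized counts at 6 weeks and 11061 to 23163 at 10 weeks, a log2 fold change of -0.03 (adjusted p = 0.933). The 6 genes with the 3-unit heat shock element letters ran from -0.03 for *Hspa8* to 0.31 for *Hspe1*, and none of the 6 was DE. *Hsp90ab1*, the constitutive cytosolic Hsp90, had 16824 to 33165 at 6 weeks and 17130 to 26300 at 10 weeks, a log2 fold change of 0.29 (adjusted p = 0.288). *Dnaja1* had a log2 fold change of 0.19 (adjusted p = 0.308).

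*Hsp90aa1*, the inducible Hsp90, cannot be read as a level in 2 rats. It was listed at 0 in rats 71 and 80, both at 6 weeks, and between 631 and 2743 in the other 11. The log2 fold change of -3.70 (adjusted p = 0.198) rested on those zeros, and without both rats it was -0.19 (adjusted p = 0.779). Only 4 genes of the table with a median of at least 500 were listed at 0 in any rat, so no mean is given for *Hsp90aa1*.

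*Hspa1b*, the stress-inducible Hsp70, varied several-fold between rats of the same age. It had 5386, 2745, 4468, 6925, 3432 and 1480 normalized counts in rats 70, 71, 75, 80, 84 and 86 at 6 weeks. At 10 weeks it had 1460, 2052, 4923, 5698, 5206, 2068 and 2403 in rats 72, 74, 78, 81, 83, 85 and 87. The ages overlapped almost fully, with a log2 fold change of 0.28 ± 0.41 (SE, adjusted p = 0.672). At 10 weeks the 3 rats of the smaller set had 4923 to 5698 and the 4 of the larger set 1460 to 2403. At 6 weeks rat 70 of the larger set, with 5386, was above rat 75 of the smaller set.

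Other chaperone genes also differed between the sets, in both directions. This is a description with no test, since these genes were part of the values that formed the sets. Adjusted for age, the smaller set exceeded the larger one by 1.19 on the log2 scale for *Hspa1b*, by 0.64 for *Hspb1* (Hsp27), by 0.50 for *Bag3*, which links Hsp70 to the autophagy of damaged proteins, and by 0.45 for *Hsf1*. *Bag6*, named after its values were seen, stood 0.49 above. Other stress-related genes lay below, with *Hspa8* at -0.42, *Dnajb1* at -0.32, *Dnaja1* at -0.24 and *Hsph1* at -0.22, as did *Hsp90ab1* at -0.38. The median over the 10 stress-related heat shock genes was -0.26, with *Hspa1b* and *Hspb1* alone above 0. All 10 chaperonin genes had values of -0.21 to -0.44 in this contrast. The median of the contrast was -0.20 over the 82 chaperone genes and -0.05 over all genes, which ran from -6.75 to 11.6. The mean log2 value of the 8 CCT subunits was 10.79 to 10.85 in the smaller set and 11.17 to 11.44 in the larger set at 6 weeks, and 10.94 to 11.00 against 11.08 to 11.39 at 10 weeks. The sets therefore did not overlap for CCT at either age.

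Immediate-early genes, which rise within minutes in handled tissue, were on average higher in the smaller set, as was *Hspa1b*. They too were part of the values that formed the sets, so this is a description with no test. The mean log2 value of 22 of them, such as *Fos*, *Jun* and *Egr1*, was 11.13 to 11.29 in the smaller set and 10.56 to 11.13 in the larger set at 6 weeks. At 10 weeks it was 11.39 to 11.49 against 10.88 to 11.06. At 6 weeks the sets all but touched, with 11.1262 in rat 70 of the larger set and 11.1285 in rat 75 of the smaller set. Adjusted for age, the median difference between the sets was -0.05 over all genes and 0.38 over these 22. *Dusp1* (-0.18), *Atf3* (-0.05) and *Ier5* (-0.03), named after their values were seen, were alone below 0. Between the ages 7 of the 22 were DE, all higher at 10 weeks, as were 7.39% of all genes. Epithelial markers also differed between the sets at 10 weeks, with a mean log2 value of 12.31 to 12.61 in the smaller set against 11.73 to 12.06 for luminal markers and of 10.97 to 11.40 against 10.35 to 10.83 for basal ones. At 6 weeks the smaller set lay within the range of the larger one for both. The part of these genes in the chaperone values was not tested.

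**Figure D5:**
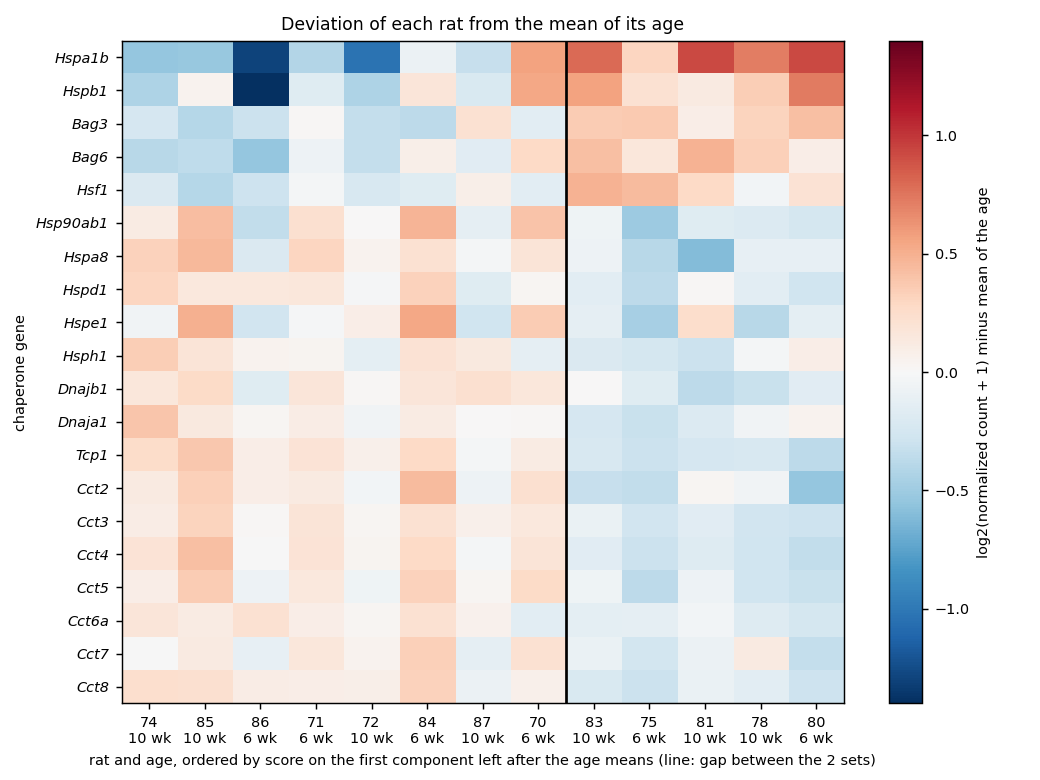
Deviation of 20 chaperone genes in each rat from the mean of its age, as log2(normalized count + 1), red above and blue below. Rats are ordered by their score on the first component left after the age means, and a line parts the larger set (left) from the smaller set (right). *Hspa1b*, *Hspb1*, *Bag3* and *Bag6* lie above 0 in all 5 rats of the smaller set. *Hsp90ab1*, *Hspa8*, *Tcp1*, *Cct3*, *Cct4*, *Cct5*, *Cct6a* and *Cct8* lie below 0 in all 5.

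No chaperonin gene passed the test. Limma called 0 of the 10, and the unadjusted p was under 0.05 for 0 of them, with log2 fold changes from -0.08 for *Cct7* to 0.31 for *Hspe1* and a median of 0.03. The 8 CCT subunits, which form 1 ring, ran from -0.08 to 0.20. *Cct5*, the subunit with the highest normalized counts, had 2930 to 4723 at 6 weeks and 2705 to 4197 at 10 weeks (adjusted p = 0.349). *Tcp1* had 1861 to 2910 and 2090 to 3203 (log2 fold change -0.04). *Cct2*, *Cct3*, *Cct4*, *Cct6a* and *Cct8* had log2 fold changes of 0.11, -0.04, 0.04, -0.02 and 0.05. *Hspd1*, the mitochondrial chaperonin, had 2752 to 4437 at 6 weeks and 3135 to 4360 at 10 weeks, a log2 fold change of 0.01. The sign of *Hspd1*, *Tcp1*, *Cct3* and *Cct6a* turned with another scaling. Among 8 mitochondrial chaperones, grouped after values were seen, limma called 0, also before adjustment of the p-values.

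The 2 heat shock factors both had log2 fold changes below 0 and neither passed. *Hsf1* had 225 to 375 normalized counts at 6 weeks and 257 to 478 at 10 weeks, a log2 fold change of -0.30 (adjusted p = 0.235). *Hsf2* had 384 to 627 and 437 to 709, a log2 fold change of -0.23 (adjusted p = 0.282). Small heat shock genes had 0 of 6 DE, and *Hspb8*, which works with *Bag3*, came nearest to the threshold with 3094 to 4137 at 6 weeks, 2156 to 3683 at 10 weeks and a log2 fold change of 0.29 (unadjusted p = 0.0415, adjusted p = 0.141). *Hspb1* had 109 to 508 and 184 to 368, a log2 fold change of 0.29 (adjusted p = 0.555). BAG genes had 0 of 6 DE, and *Bag3* had 1130 to 1945 and 1101 to 1864 with a log2 fold change of -0.0011 (adjusted p = 0.998). DNAJA genes had 0 of 4 DE, and DNAJB and DNAJC genes 2 of 12 and 3 of 26.

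Several low genes had large fold changes that the spread between rats did not let pass. *Dnajb7* had 0 to 26 normalized counts at 6 weeks and 10 to 45 at 10 weeks, a log2 fold change of -1.35 ± 0.59 (SE, adjusted p = 0.14). *Dnajb13*, a part of the axoneme of cilia and sperm tails, had 21 to 92 and 38 to 149, a log2 fold change of -1.01 ± 0.36 (SE, adjusted p = 0.073). *Hspb7*, known from heart muscle, had 0 to 12 and 4 to 17, a log2 fold change of -0.93 (adjusted p = 0.244). *Dnajc28* had 4 to 15 and 0 to 14, a log2 fold change of 0.75 (adjusted p = 0.335). *Hspb11*, also a transport protein of cilia, had 4 to 52 and 6 to 27, a log2 fold change of 0.55 (adjusted p = 0.497). The second *Hspa8* record had 0 to 94 and 0 to 63, and the counting may have split reads between the 2 records.

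Partners of the chaperones outside these families included 8 DE genes. Of 39 such co-chaperones and prefoldin subunits, 38 were in the table and 8 were DE (21.1%), near the 16.1% of all genes. Higher at 10 weeks were 5. *Fkbp5*, an Hsp90 partner that dampens the glucocorticoid receptor, had 199 to 296 normalized counts at 6 weeks and 349 to 494 at 10 weeks, a log2 fold change of -0.71 (adjusted p = 0.00281). *Pfdn2*, a prefoldin subunit that passes actin and tubulin to CCT, had 109 to 162 and 174 to 230, a log2 fold change of -0.68 (adjusted p = 0.00245). *Grpel2*, a nucleotide exchange factor of the mitochondrial Hsp70, had 923 to 1184 and 1346 to 1679, a log2 fold change of -0.55 (adjusted p = 0.00339). *Cdc37l1*, an Hsp90 partner, and *Dnlz*, which keeps the mitochondrial Hsp70 soluble, had log2 fold changes of -0.52 and -0.59 (adjusted p = 0.0127 and 0.0246). These 5 were among 6 of the 38 for which the ages did not overlap, against 6.07% of all genes. For *Dnlz* the ages only just parted, with at most 71 normalized counts at 6 weeks and at least 72 at 10 weeks.

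Among those higher at 6 weeks were *Trap1* and *Nudcd2*. *Trap1*, the mitochondrial Hsp90, had 386 to 688 normalized counts at 6 weeks and 180 to 465 at 10 weeks, where rat 81 was the highest, a log2 fold change of 0.80 (adjusted p = 0.0255). *Nudcd2* had a log2 fold change of 0.90 (adjusted p = 0.0305). Leaving out 1 rat ended the call of *Trap1* in 4 of 13 fits (without rats 70, 72, 84 or 87) and of *Nudcd2* in 6 (without rats 70, 72, 78, 84, 86 or 87). It ended that of *Dnlz* in 2 (without rats 72 or 84), as did library size scaling (adjusted p = 0.0553). *Stip1*, which joins Hsp70 to Hsp90, and *Stub1*, the ubiquitin ligase of both, did not pass.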

How the data were processed

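RNA-seq of mammary epithelial cells of 13 rats was used, 1 library per rat. The authors estimated counts with RSEM 1.2.22, and the submitters' processing notes name rn5. The annotation and the scaling are not given in the sources used here. The deposited values are whole numbers in which 7 of 13 rats skip some numbers from 1 to 30, so they were taken as a score, namely counts scaled per library and rounded by the authors. The depth before scaling is therefore unknown. The deposited table also holds the authors' edgeR comparison, which was not used, and DESeq2 is named in the notes. Samples were grouped by the age in their titles. Nothing in the labels says more on how rats were drawn, so p-values weigh the difference between the ages against the spread between these rats only.

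Tests were two-sided and used limma 3.58.1 in R 4.3.3 after adding 1 and taking log2. Genes needed a mean of 1 or more, which all 14790 had. No covariate was used, p-values were adjusted after Benjamini-Hochberg over all genes, and the threshold was 0.05. The fit was tested on simulated data. Promoters were searched in Python with pandas. The members and lists were chosen with earlier results of these data known. Named genes are those that were DE, the most abundant of each class, the stress-related set, the heat shock factors, the CCT subunits, the 5 largest changes and the 5 largest spreads that did not pass, and DE co-chaperones with *Stip1*, *Hyou1* and *Stub1*. One result among the co-chaperones is not reported here. Any other is said to be chosen after its values were seen. Alternatives were median-ratio and library size scaling, 0.1 as the pseudocount, 10 or more required in every rat, no minimum, limma-trend, sample quality weights, the rat set as a term, each set alone and each rat left out. *Hsp90aa1* without 2 rats was added after seeing the data. Protein sequences were not analysed here.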

Additional observations from a re-analysis of the deposited data

Results flagged for a closer look

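In 5 of 104 groups of 1 gene at 1 age, the highest or lowest rat stood far from the others, and chance gives about 1 in 20. *Dnaja1* had 3200 normalized counts in rat 75 at 6 weeks, where the other rats of that age had 4041 to 4302. *Dnajb13* had 92 in rat 80 at 6 weeks, against 21 to 41 in the others. *Dnajb7* had 45 in rat 74 at 10 weeks, against 10 to 22. *Dnajc28* had 15 in rat 80 at 6 weeks, against 4 to 8. The second *Hspa8* record had 94 in rat 75 at 6 weeks, against 0 to 35. Rats 75 and 80 belong to the smaller set and rat 74 to the larger one. None of these genes was DE.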

How the results depend on the processing

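The count of 6 DE chaperone genes (2 higher at 6 weeks and 4 at 10 weeks) came to 5 to 8 with either scaling, the smaller pseudocount, either minimum or limma-trend. It was 24 (11 and 13) with sample quality weights, 10 (3 and 7) with the rat set as a term, 11 (4 and 7) in the larger set of rats alone, where 38.2%, 22.5% and 23.5% of all genes were DE, and 0 (0 and 0) in the smaller set alone, where 5 chaperone genes had an unadjusted p under 0.05 and limma passed 0 genes of the whole table, with 1976 under 0.05 before adjustment. *Dnajb2* was no longer DE with library size scaling, and *Dnajb2* and *Dnajc10* were not DE in the larger set alone; the others of the 6 stayed DE in both. Leaving out 1 rat gave 4 to 7, with 1 to 3 higher at 6 weeks and 3 to 6 at 10 weeks. The count higher at 6 weeks was 1 without any of rats 70, 71, 72, 74, 78, 81, 83, 84, 86 or 87 and 3 without rats 80 or 85, and was 2 without rat 75. The 8 DE co-chaperones became 17 with weights, 0 in the smaller set, 5 without rat 84 or without rat 72 and up to 11 without rat 81. The cause of these shifts was not tested. The median log2 fold change of the chaperone genes kept within -0.08 to 0.02 over all of these settings.

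Of 515 values of single genes under these settings, 441 kept their direction and side of the threshold, 27 came to pass it, 19 no longer passed it and 28 changed sign, none of them in a gene that was DE over all rats. In the smaller set alone the log2 fold change was 0.0078 for *Hsf2*, -0.086 for *Cct8*, -0.075 for *Cct4*, -0.64 for *Hspb11*, 0.069 for *Dnajc13*, -0.22 for *Hspd1*, 0.14 for *Bag3*, -0.22 for *Cct2*. With library size scaling the log2 fold change was 0.027 for *Cct6a*, 0.011 for *Tcp1*, 0.0061 for *Cct3*, 0.046 for *Bag3*, 0.021 for *Hspa8*. With sample quality weights the log2 fold change was 0.0081 for *Cct6a*, 0.038 for *Tcp1*, 0.050 for *Cct7*, 0.020 for *Cct3*, 0.13 for *Stub1*, 0.0071 for *Bag3*, 0.015 for the second *Hspa8* record, 0.058 for *Hspa8*. With the rat set as a term the log2 fold change was -0.00042 for *Cct4*, -0.017 for *Hspd1*, 0.047 for *Bag3*. With median-ratio scaling the log2 fold change was -0.0092 for *Hspd1*. In the larger set alone the log2 fold change was 0.053 for *Cct7*, 0.26 for *Stub1*, 1.02 for the second *Hspa8* record. With 1 rat left out it ran from -0.085 to 0.071 for *Bag3*, -0.086 to 0.018 for *Cct3*, -0.016 to 0.11 for *Cct4*, -0.063 to 0.029 for *Cct6a*, -0.010 to 0.11 for *Cct8*, -0.13 to 0.051 for *Hspa8*, -0.96 to 0.67 for the second *Hspa8* record, -0.052 to 0.086 for *Hspd1*, -0.15 to 0.026 for *Stub1*, -0.092 to 0.037 for *Tcp1*. No paired analysis was possible because no rat number is shared between the ages. Depth before scaling is unknown, which limits what can be said of genes with few counts.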
